A study of Mus musculus with 9 samples.

Results

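The sarcomere, Z-disc and myofibril assembly genes are a set of 37 genes whose products build, anchor, regulate or assemble the contractile apparatus of heart muscle. They were chosen by symbol, and each of the 37 symbols matched 1 gene identifier among the 53465 counted. All 37 passed the filter on low counts, which left 13825 genes tested, and the smallest count of any of them in any library was 160. RNA was sequenced from hearts of NOD-SCID mice, a strain that lacks functional T and B lymphocytes and keeps macrophages and neutrophils. The groups were mice with sham surgery, mice with coronary artery ligation, which stops blood flow to part of the ventricle wall, and mice with coronary artery ligation and implanted FOXO3-GE-MPCs, with 3 libraries each, called sham, ligation and cells here. All groups share the strain. By their labels all samples came from the border zone of the infarct, although a sham heart has none. Ages, the time after surgery and the number of animals in a library were not given in the sources used here, so the p-values measure the spread between libraries, which may be technical. The source field of cells replicates 2 and 3 names FOXO4 and FOXO5 where their titles and treatment fields name FOXO3, and the titles were followed.

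The sarcomere is the repeating unit of striated muscle. Thick filaments of myosin, with their light chains and myosin-binding protein C, slide along thin filaments of actin, tropomyosin and the troponin complex when calcium binds troponin C. Thin filaments are anchored in the Z-disc by alpha-actinin and its partners, thick filaments are cross-linked at the M-band by myomesins, and titin spans the distance between the Z-disc and the M-band. Desmin filaments, costameres and intercalated discs tie the myofibrils to one another, to the cell membrane and to the next cell. Chaperones, a methyltransferase, ubiquitin ligases and muscle kinases fold, place, renew and modify these parts. Mutations in many of the genes cause cardiomyopathy.

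Libraries held 4549268 to 7515052 gene counts. As an unscaled share of them, the 37 genes together took 4.91% to 4.96% in sham, 4.80% to 4.97% in ligation and 4.65% to 4.74% with cells, so that sham and ligation overlapped. Levels below are in CPM, counts scaled to a common library size with TMM factors, which set the typical gene equal between libraries. On that scale the 37 genes summed to 53390.4 to 53728 CPM in sham, 45061 to 48150.5 in ligation and 45091 to 46340.2 with cells, and sham lay above both other groups. Most of that difference lay in the light chain genes Myl2 and Myl3. The share of counts from mitochondrially encoded genes also moved with the groups: it was 19.1% to 19.9% for sham, 12.5% to 13.9% for ligation and 14.3% for cells, and the part of that share in the changes of the 37 genes was not tested. Markers of heart muscle outside the sarcomere (12 genes, among them Ryr2, Pln and Mb) each had counts in every group and summed to 29642 to 29670.1 CPM in sham, 23205 to 24791 in ligation and 25547 to 25997 with cells. The fall of this sum was not shared by every marker. After ligation 4 of the 12 were called higher and 5 lower by the test given below, with a median log2 change of 0.00422. In such bulk samples, fewer cells of a type and less RNA per cell cannot be told apart. File headers of sham replicates 1 and 2 share a name stem, as do those of ligation replicates 2 and 3, and what that stem stands for is not given in the sources used here. With these pairs summed the members called were 29, 14 and 32 in the 3 comparisons, against 31, 15 and 32. Counts are per gene, so splice forms, such as the stiff and compliant forms of titin, were not resolved. Exons overlapped those of another gene over 32.6% of their length in Tmod1, 26.6% in Trim54, 25.5% in Vcl, 21.7% in Cmya5 and 17.04% in Cryab. How far this affects the levels of these 5 genes was not measured.

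The sequence before a RefSeq transcript start is shown for members that hold the motif of a muscle transcription factor there, since serum response factor, which binds the CArG box, and the MEF2 factors are known to act on sarcomere genes. RefSeq windows (GRCm38.p6) matched 32 of the 37 genes, with 50 windows of 250 bases before a start. On both strands, a CArG box was found in 6 of these 50 windows (12%), against 1.47% of 32851 windows of all genes, and a MEF2 site in 5 (10%), against 2.92%. The TEAD motif CATTCC was found in 16 (32.0%), against 12.6%. No member held both a CArG box and a MEF2 site. The motifs were chosen after the expression values had been seen, and a match is a description of the letters. Genes with a CArG box were Myl3, Ldb3, Vcl, Myom1 and Nebl. Their windows are given 5′ to 3′, with the CArG box in capitals, whole for 4 genes and as a stretch for Nebl, where it lay before 1 of 4 listed starts.
Myl3, chr9:110763428-110763677, plus strand: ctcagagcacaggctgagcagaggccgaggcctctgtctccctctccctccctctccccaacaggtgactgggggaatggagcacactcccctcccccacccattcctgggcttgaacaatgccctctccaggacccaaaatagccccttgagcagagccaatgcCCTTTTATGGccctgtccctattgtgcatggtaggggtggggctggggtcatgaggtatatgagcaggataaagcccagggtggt
Ldb3, chr14:34588682-34588931, minus strand: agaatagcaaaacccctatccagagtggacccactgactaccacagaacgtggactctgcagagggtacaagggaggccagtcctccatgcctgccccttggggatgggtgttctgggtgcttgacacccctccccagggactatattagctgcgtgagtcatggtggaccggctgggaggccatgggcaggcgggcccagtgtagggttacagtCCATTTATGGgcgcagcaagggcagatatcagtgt
Vcl, chr14:20929148-20929397, plus strand: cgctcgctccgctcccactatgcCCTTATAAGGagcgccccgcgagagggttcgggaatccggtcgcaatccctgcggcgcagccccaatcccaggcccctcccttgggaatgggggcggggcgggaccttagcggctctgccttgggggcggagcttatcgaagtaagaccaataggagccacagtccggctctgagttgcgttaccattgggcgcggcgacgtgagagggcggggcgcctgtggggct
Myom1, chr17:71019307-71019556, plus strand: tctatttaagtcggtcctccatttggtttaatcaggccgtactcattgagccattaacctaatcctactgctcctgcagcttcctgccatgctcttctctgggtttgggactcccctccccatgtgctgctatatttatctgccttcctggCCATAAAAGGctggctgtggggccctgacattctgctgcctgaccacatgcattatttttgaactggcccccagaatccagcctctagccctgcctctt
Nebl, chr2:17462979-17463048, minus strand: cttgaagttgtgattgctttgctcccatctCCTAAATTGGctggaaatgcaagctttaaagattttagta
The box ended 76 bases before the start in Myl3, 26 bases before in Ldb3, 218 in Vcl, 90 in Myom1 and 153 in Nebl. A further Ldb3 start had the same box within its window. Listed RefSeq starts can lie away from the outermost start that GENCODE M21 gives. Those of Myl3, Myom1 and Nebl lay 21817, 16924 and 268608 bases inside it, while those of Vcl and Ldb3 lay 0 and 1 bases from it. Whether transcripts begin at these positions in these hearts was not tested. Stretches around the MEF2 site, in capitals, follow for 4 of the 5 genes that held one, the remaining gene being Speg.
Ttn, chr2:76982674-76982743, minus strand: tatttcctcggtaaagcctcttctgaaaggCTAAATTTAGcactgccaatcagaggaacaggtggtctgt
Mybpc3, chr2:91118024-91118093, plus strand: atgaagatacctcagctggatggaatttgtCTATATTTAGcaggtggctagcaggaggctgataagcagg
Myoz2, chr3:123034988-123035050, minus strand: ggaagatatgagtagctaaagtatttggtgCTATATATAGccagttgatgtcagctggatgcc
Alpk3, chr7:81057535-81057599, plus strand: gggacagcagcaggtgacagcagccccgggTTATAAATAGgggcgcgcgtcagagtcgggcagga
The site ended 157 bases before the start in Ttn, 81 in Mybpc3, 24 in Myoz2 and 26 in Alpk3. The start of Myoz2 lay 28 bases inside the outermost GENCODE start, and those of the other 3 were the same as it. Genes of either motif went both ways after ligation: Myl3 and Ldb3, with a CArG box, fell and Vcl, Nebl and Myom1 rose, and Ttn, Myoz2 and Speg, with a MEF2 site, fell and Mybpc3 and Alpk3 rose.

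In sham hearts the levels of the 37 genes spanned a wide range. Per kilobase of annotated exon, the ventricular regulatory light chain Myl2 was the highest with 4464 CPM per kilobase, followed by the essential light chain Myl3 with 3188 and troponin C, Tnnc1, with 2954. The length counts every annotated exon of a gene, whichever forms are expressed, so this order depends on the annotation. Before division by length Tnnt2, with 7752 bases of exon, was the highest of the 37 at 9372 CPM. The chaperone Cryab and cardiac troponin T, Tnnt2, both stood at 1209 and did not differ in order beyond their spread. Vinculin, Vcl, was the lowest with 4.40 CPM per kilobase and Pdlim3 the next with 7.81. Titin, by counts among the most abundant at 2279 ± 68.6 CPM (SD, n = 3), stood at 19.5 CPM per kilobase because its exons span 116825 bases. In ligation Tnnc1 stood above Myl3, with 1959.5 against 1697 CPM per kilobase, and the non-classical myosin Myh7b was the lowest of the 37 at 4.93. Libraries of a group lay close together: the SD was 3.01% of the mean in sham for the median gene, 3.20% in ligation and 2.65% with cells, and at most 16.1%, for Vcl in sham.

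**Figure D1:**
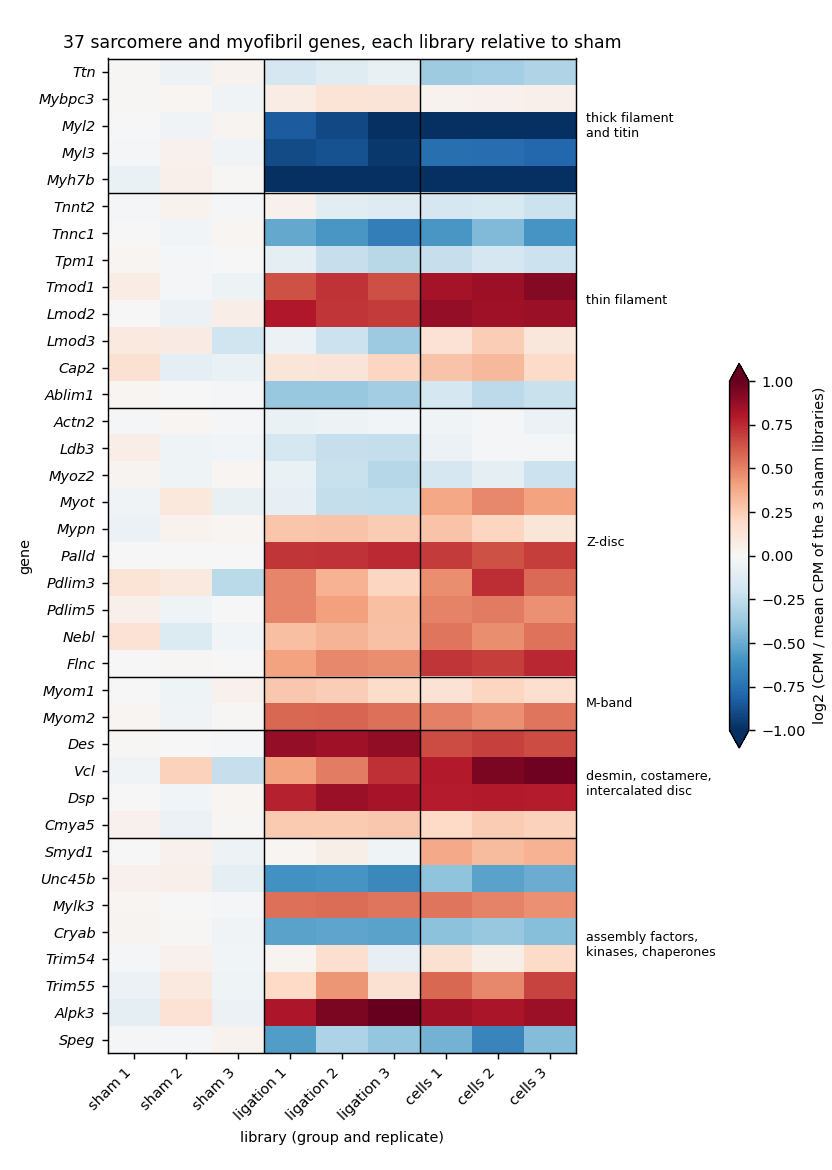
Heat map of the 37 genes (rows, by role) in the 9 libraries (columns), coloured by log2 of CPM over the mean of the 3 sham libraries, with the scale ending at -1 and 1. Myl2, Myl3 and Myh7b are blue and Lmod2, Palld, Des, Dsp and Alpk3 red in all 6 ligated libraries.

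The first comparison asked how these genes differed after ligation. Of the 37, 18 rose and 13 fell at an adjusted p under 0.05 (edgeR's quasi-likelihood test, adjusted over all genes by Benjamini and Hochberg), in total 83.8%, where 38.2% of all 13825 genes tested were called, 20.1% higher and 18.0% lower. Highly counted genes are called more often: among the 3426 genes at or above the lowest mean of the 37, 50.8 CPM, 62.0% were called, 29.5% higher and 32.5% lower. By role, the median change was lowest in the thick filament and highest in desmin, the costamere and the intercalated disc. The median log2 fold change over the 37 was 0.11, against 0.00804 over all genes tested, and the median absolute change was 0.37 against 0.27. Scaling by library totals alone, which moved the median gene by 0.19, gave 23 genes higher and 8 lower. The ligation and sham libraries did not overlap in 32 of the 37, where 47.6% of all genes did not. That share and the medians given for all genes are over genes that mostly lie below the 37 in level.

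Thick filament genes fell with 1 exception. Of these 5 members 4 fell and 1 rose, with a median of -0.91, and their summed level went from 20795 ± 7.77 CPM (SD, n = 3) to 13597 ± 407. Most of the fall of that sum lay in Myl2 and Myl3, whose means went from 8704 to 4547 and from 6515 to 3468 CPM. Myh7b, a myosin heavy chain gene that hosts a microRNA, was at 99.1, 108 and 105 CPM in the 3 sham libraries, 34.1, 34.7 and 29.4 in ligation and 35.6, 37.5 and 34.3 with cells. All ligation libraries lay below all sham libraries, a 3.19-fold fall (log2 fold change -1.67, SE 0.0772, adjusted p 6.12e-13). Myl2, whose product is the phosphorylated light chain of ventricular myosin, was at 8712, 8514 and 8886 CPM in the 3 sham libraries, 4888, 4652 and 4102 in ligation and 4127, 4351 and 4098 with cells. It was 1.91-fold lower after ligation (log2 fold change -0.94, SE 0.0445, adjusted p 1.01e-12), with no overlap between sham and the other libraries. Myl3, the other ventricular light chain, was at 6477, 6723 and 6346 CPM in the 3 sham libraries, 3507, 3554 and 3343 in ligation and 3872, 3839 and 3775 with cells. Its fall was 1.88-fold (log2 fold change -0.91, SE 0.0311, adjusted p 4.93e-15), again with sham above every other library. Titin was at 2294, 2205 and 2339.5 CPM in the 3 sham libraries, 2034, 2093 and 2167 in ligation and 1777, 1806 and 1850.5 with cells. It fell by 0.12 on the log2 scale (SE 0.0353, adjusted p 0.0108), a fall that ended with library totals alone, where the change was 0.0685 with an adjusted p of 0.134, and that missed the threshold without sham replicate 3 (adjusted p 0.0602). Mybpc3, myosin-binding protein C, was the member that rose, by 0.11 (SE 0.0302, adjusted p 0.00569). It missed the threshold with libraries of 1 header stem summed (adjusted p 0.0659).

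Thin filament genes went both ways, 2 rising and 3 falling of 8. The calcium sensor Tnnc1 fell by 0.59 on the log2 scale (SE 0.0438, adjusted p 9.59e-10), from 3079.8, 3025 and 3120.2 CPM in sham to 2154, 2057 and 1908 in ligation. The tropomyosin Tpm1 fell by 0.20 and the actin-binding LIM protein Ablim1 fell by 0.37 on the log2 scale, with adjusted p-values of 0.000143 and 1.51e-06; the Tpm1 call was lost with library totals alone (adjusted p 0.721). The genes that rose both act at the pointed end of the filament. Leiomodin 2, Lmod2, which elongates thin filaments, was at 382, 367 and 400.0 CPM in the 3 sham libraries, 667, 628 and 620.3 in ligation and 704, 689 and 698 with cells. It was 1.67-fold higher after ligation (log2 fold change 0.74, SE 0.0452, adjusted p 5.33e-11), without overlap. Tropomodulin 1, Tmod1, which caps the same end, was 1.59-fold higher (log2 fold change 0.67, SE 0.0631, adjusted p 3.49e-08). Tnnt2, Lmod3 and Cap2, a cyclase-associated protein that acts on actin, did not pass, with changes of -0.063, -0.22 and 0.16 and adjusted p-values of 0.172, 0.0534 and 0.0700. Each of these 3 was called under some alternatives: Tnnt2 was 0.124, higher, with library totals alone (adjusted p 0.00227) and -0.117, lower, without ligation replicate 1 (adjusted p 0.000857).

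Of the 10 Z-disc genes 6 rose and 3 fell, with a median of 0.29. Palladin, Palld, an actin-bundling scaffold of muscle and other cells, was at 135, 135 and 134 CPM in the 3 sham libraries, 221, 222 and 226 in ligation and 218, 209.6 and 217 with cells. It rose 1.66-fold (log2 fold change 0.73, SE 0.0502, adjusted p 3.16e-10), and sham lay below every other library. Filamin C, Flnc, a muscle actin cross-linker, rose 1.37-fold (log2 fold change 0.45, SE 0.0448, adjusted p 7.41e-08). Smaller rises were called in Pdlim5 (0.40), Pdlim3 (0.35), Nebl (0.31) and Mypn (0.27), the last being myopalladin, a relative of palladin. The Pdlim3 call was lost without sham replicate 3, where its change was 0.225 (adjusted p 0.0990), and without ligation replicate 1 (adjusted p 0.0549). Ldb3, also called cypher or ZASP, fell by 0.22, the calcineurin-binding Myoz2 fell by 0.19 and Myot, myotilin, fell by 0.19 on the log2 scale, with adjusted p-values of 0.000281, 0.00438 and 0.0471. All 3 falls were lost with library totals alone (adjusted p 0.583, 0.960 and 0.966), and the Myot fall in 13 of 19 alternatives. Actn2, cardiac alpha-actinin and the main protein of the Z-disc, was at 1525, 1557 and 1522 CPM in the 3 sham libraries, 1463, 1478 and 1504 in ligation and 1497, 1514 and 1475 with cells. It did not pass (log2 fold change -0.051, SE 0.0335, adjusted p 0.252), and with library totals alone the difference was 0.137, called higher (adjusted p 0.00252).

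Both M-band genes rose. Myom2, the myomesin of fast and adult heart fibres, was at 732, 703 and 725 CPM in the 3 sham libraries, 1074, 1081 and 1052 in ligation and 1020.0, 988 and 1045 with cells. That was 1.48-fold higher after ligation (log2 fold change 0.57, SE 0.0384, adjusted p 2.33e-10). Myom1 rose by 0.23 (SE 0.0407, adjusted p 0.000113).

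All 4 genes of desmin, the costamere and the intercalated disc rose, with a median of 0.69, and the 4 together went from 2753 to 2801 CPM in sham to 4789 to 4868. Desmin, Des, the intermediate filament around the Z-disc, was at 1868, 1848 and 1839 CPM in the 3 sham libraries, 3410.0, 3326 and 3422 in ligation and 2906, 2977 and 2913 with cells. Its rise was 1.83-fold (log2 fold change 0.87, SE 0.0301, adjusted p 5.73e-15). Desmoplakin, Dsp, which ties desmin to the desmosome, was at 570.4, 557 and 576 CPM in the 3 sham libraries, 968, 1032 and 1004 in ligation and 979, 985 and 981 with cells. It rose 1.76-fold (log2 fold change 0.82, SE 0.0390, adjusted p 1.02e-12), with every ligated library far above sham. Vinculin, a link between actin and adhesion sites, rose 1.48-fold (log2 fold change 0.56, SE 0.106, adjusted p 0.000231) at a much lower level, and Cmya5, myospryn, a desmin-binding protein, 1.20-fold (log2 fold change 0.26, SE 0.0454, adjusted p 9.38e-05).

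The 8 assembly factors, kinases and chaperones were divided, 3 rising and 3 falling. Alpk3, an alpha-kinase-like gene linked to cardiomyopathy, was at 86.5, 102 and 88.9 CPM in the 3 sham libraries, 163, 177 and 188 in ligation and 167, 163 and 167 with cells. It rose 1.90-fold (log2 fold change 0.93, SE 0.0689, adjusted p 9.87e-10), the largest rise of the 37. Mylk3, the cardiac kinase of the regulatory light chain, rose 1.46-fold (log2 fold change 0.55, SE 0.0428, adjusted p 2.15e-09) while its substrate Myl2 fell. The ubiquitin ligase gene Trim55 rose by 0.27 (adjusted p 0.0143), a call lost without sham replicate 1 or 3 or ligation replicate 2. Its change was 0.245 and 0.251 without sham replicate 1 and 3, and 0.176 without ligation replicate 2. Unc45b, the chaperone that folds the myosin head, was at 165, 165 and 149 CPM in the 3 sham libraries, 105, 106 and 102 in ligation and 121, 110.0 and 114 with cells. It was 1.53-fold lower after ligation (log2 fold change -0.61, SE 0.0616, adjusted p 9.1e-08). Cryab, the small heat shock protein alpha-B crystallin, was 1.45-fold lower (log2 fold change -0.53, SE 0.0343, adjusted p 1.18e-10), and Speg, a kinase of the triad region, 1.33-fold lower (log2 fold change -0.41, SE 0.0676, adjusted p 5.68e-05). Smyd1, a muscle methyltransferase that acts with Unc45b on myosin, and Trim54, a further ligase, did not pass (log2 differences 0.013 and 0.038, adjusted p 0.851 and 0.693), and both were called higher with library totals alone.

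Over 19 alternatives, 23 of the 31 calls held in every one, 15 higher and 8 lower. Those that did not were Ttn, Mybpc3, Tpm1, Ldb3, Myoz2, Myot, Pdlim3 and Trim55. Of the 37, 11 were called after ligation with a change of at least 1.5-fold, against 2253 of all 13825 genes tested, and 1, Myh7b, with at least 2-fold, against 979.

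**Figure D2:**
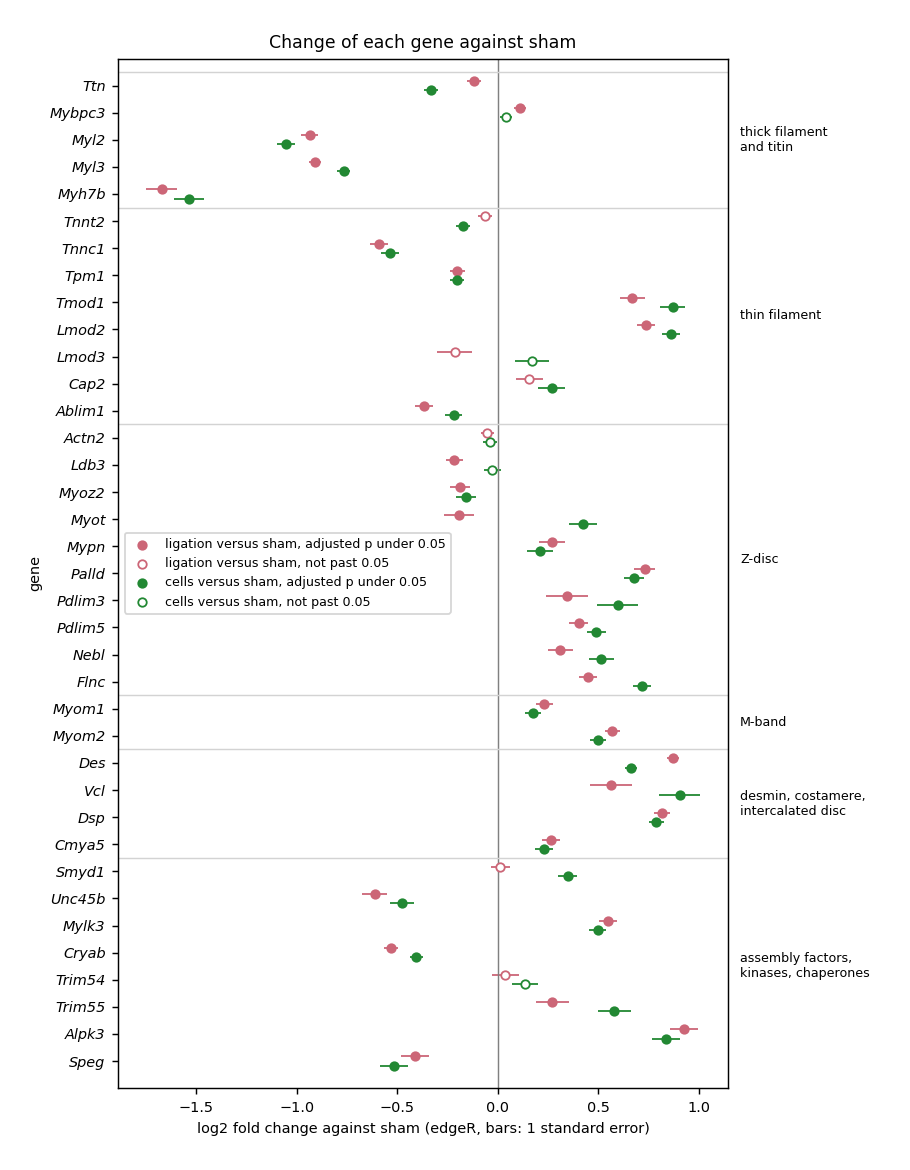
Log2 fold change (x axis, bars 1 standard error) of each gene (y axis, by role) for ligation against sham in red and cells against sham in green, filled where the adjusted p is under 0.05. Both comparisons share the sham libraries. Myh7b lies farthest to the left, at -1.67 and -1.54, and all 4 genes of desmin, the costamere and the intercalated disc lie to the right of 0.

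Other genes of the contractile apparatus were read from 4 chosen lists. Of 14 further thick and thin filament genes 13 were tested, with 2 higher and 10 lower after ligation. Myh7, the slow myosin heavy chain, rose by 1.22 (adjusted p 4.63e-14), and cardiac troponin I, Tnni3, fell by 0.95 and Tmod4 fell by 0.81 on the log2 scale. Of 18 tested Z-disc and M-band genes 10 were higher and 5 lower, led by Ankrd1, a stress-induced titin-binding protein (1.90), Xirp2 (1.61) and Synpo2l (1.59). Of 15 tested adhesion and disc genes 9 were higher and 2 lower, with dystrophin, Dmd, up by 0.86 and the delta-sarcoglycan gene Sgcd up by 0.57, while Lims2, a focal adhesion adaptor, fell by 0.64 on the log2 scale. All 15 assembly and turnover genes were tested, 8 higher and 1 lower, with the atrophy ligase Fbxo32 up by 1.12, the myosin chaperone Hsp90aa1 up by 0.70 and the methyltransferase Smyd2 up by 0.53.

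Ligated hearts with implanted FOXO3-GE-MPCs were then set against ligation alone. The median absolute log2 change of the 37 genes was 0.117, against 0.143 for all genes tested, most of which lie below the 37 in level. Of the 37 genes, 12 were higher and 3 lower with cells by the same edgeR test, 40.5%, where 9.87% of all genes tested were called, 4.19% higher and 5.69% lower. Among the 3426 genes at or above the lowest mean of the 37, 16.7% were called, 9.40% higher and 7.33% lower. The median log2 fold change was 0.0876 over the 37 and 0.00195 over all genes. The split was 7 higher and 5 lower with library totals alone, and 7 were higher in the fits without ligation replicate 2 or without cells replicate 3, the last with 9 calls in all. The groups did not overlap in 22 of the 37, where 27.2% of all genes, most of them at lower levels, did not. Of the 15 calls, 8 held in every one of 19 alternatives: Myot, Lmod3, Smyd1, Flnc, Ldb3 and Myl3 higher, and Ttn and Des lower.

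Myot, a Z-disc protein that binds alpha-actinin and filamin C, showed the largest difference of the 37. It was at 57.3, 63.4 and 55.9 CPM in the 3 sham libraries, 55.6, 49.9 and 49.8 in ligation and 77.2, 82.1 and 77.6 with cells. All cells libraries were above all others, 1.53-fold higher than in ligation (log2 fold change 0.62, SE 0.0716, adjusted p 4.8e-06). Flnc, its partner, was at 272, 275 and 272 CPM in the 3 sham libraries, 361, 381 and 377 in ligation and 447, 442 and 459.5 with cells. The 3 groups did not overlap, and it was 1.20-fold higher with cells than in ligation (log2 fold change 0.27, SE 0.0441, adjusted p 0.000297). Ldb3 was at 862, 801 and 811 CPM in the 3 sham libraries, 729, 703 and 699 in ligation and 791, 817 and 820.1 with cells. Its cells libraries were 1.14-fold above ligation (log2 fold change 0.19, SE 0.0412, adjusted p 0.00430) and overlapped with sham. Nebl, nebulette, which links Z-disc and thin filament, was 1.15-fold higher (log2 fold change 0.20, SE 0.0613, adjusted p 0.0393), a call lost in 6 of 19 alternatives. The other 6 Z-disc genes were not called. Pdlim3 differed by 0.25 (adjusted p 0.120) and was called higher in 1 of 19 alternatives, and Actn2 differed by 0.014 (SE 0.0335, adjusted p 0.859).

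Among the assembly factors Smyd1, Trim55 and Cryab were higher with cells. Smyd1 was at 333, 341 and 320.2 CPM in the 3 sham libraries, 336, 346 and 322 in ligation and 431, 412 and 422 with cells. Sham and ligation overlapped, and the cells libraries were all higher, 1.26-fold above ligation (log2 fold change 0.33, SE 0.0467, adjusted p 4.94e-05). Trim55 was at 52.9, 58.8 and 53.5 CPM in the 3 sham libraries, 63.3, 74.95 and 61.1 in ligation and 82.1, 76.7 and 88.2 with cells. It was 1.24-fold higher with cells (log2 fold change 0.31, SE 0.0799, adjusted p 0.0160), a call lost without ligation replicate 1 or 3 or cells replicate 3. Cryab was 1.09-fold higher (log2 fold change 0.13, SE 0.0343, adjusted p 0.0193), lost in 4 of 19 alternatives. Unc45b, with which Smyd1 is known to act, was not called (log2 fold change 0.14, SE 0.0620, adjusted p 0.192), although its cells libraries did not overlap with ligation. Alpk3, Mylk3, Speg and Trim54 did not pass either, with adjusted p-values of 0.397 to 0.520.

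In the thin filament, leiomodin 3, Lmod3, a nucleator of actin filaments in muscle, was at 86.5, 86.0 and 70.6 CPM in the 3 sham libraries, 77.8, 69.7 and 63.1 in ligation and 89.8, 95.99 and 87.4 with cells. Ligation and sham overlapped and the cells libraries were above both, 1.31-fold above ligation (log2 fold change 0.39, SE 0.0838, adjusted p 0.00425). Tmod1 was 1.15-fold and Ablim1 1.11-fold higher, with adjusted p-values of 0.0376 and 0.0442, lost in 11 and 12 of 19 alternatives. Tnnt2 was at 9247, 9620.3 and 9247 CPM in the 3 sham libraries, 9641, 8704 and 8575 in ligation and 8358, 8455 and 8094 with cells. It fell by 0.11 on the log2 scale with cells (SE 0.0350, adjusted p 0.0468), a call lost in 7 of 19 alternatives, and ligation replicate 1 lay above every sham library while the other ligation libraries lay below. In the edgeR fit without ligation replicate 1 the change was -0.0597 (adjusted p 0.150). Lmod2 was not called at 0.13 (adjusted p 0.0787), although its cells libraries lay above ligation and it was called higher in 3 of 19 alternatives. Not called either were Tnnc1, Tpm1 and Cap2 (adjusted p 0.348 to 0.979).

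The lower genes called in every alternative were titin and desmin. Titin fell by 0.21 on the log2 scale with cells, 1.16-fold, from 2034, 2093 and 2167 to 1777, 1806 and 1850.5 CPM (SE 0.0354, adjusted p 0.000343), so that the groups did not overlap. Desmin fell by 0.21, from 3410.0, 3326 and 3422 to 2906, 2977 and 2913 CPM (SE 0.0299, adjusted p 6.89e-05), and stayed above the 1868, 1848 and 1839 of sham. Myl3 was higher with cells, 1.10-fold (log2 fold change 0.14, SE 0.0309, adjusted p 0.00405), while Myl2 (-0.12, adjusted p 0.105) and Myh7b (0.14, adjusted p 0.362) were not called. Myl2 was called lower in 4 of 19 alternatives. In fits that each left out 1 library its change ranged from -0.185 to -0.0643, and that of Myh7b from 0.0563 to 0.186. Mybpc3, at -0.07 (adjusted p 0.169), was not called, and was called lower in 3 of 19 alternatives. Whether Myl2 and Myl3 differed from each other in response was not tested. Vinculin was at 35.2, 42.2 and 30.6 CPM in the 3 sham libraries, 47.5, 51.2 and 59.6 in ligation and 62.4, 69.2 and 70.7 with cells. It was 1.27-fold higher with cells (log2 fold change 0.34, SE 0.0968, adjusted p 0.0278), a call lost in 5 of 19 alternatives. The M-band genes, Dsp and Cmya5 did not pass, with adjusted p-values of 0.286 to 0.721.

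**Figure D3:**
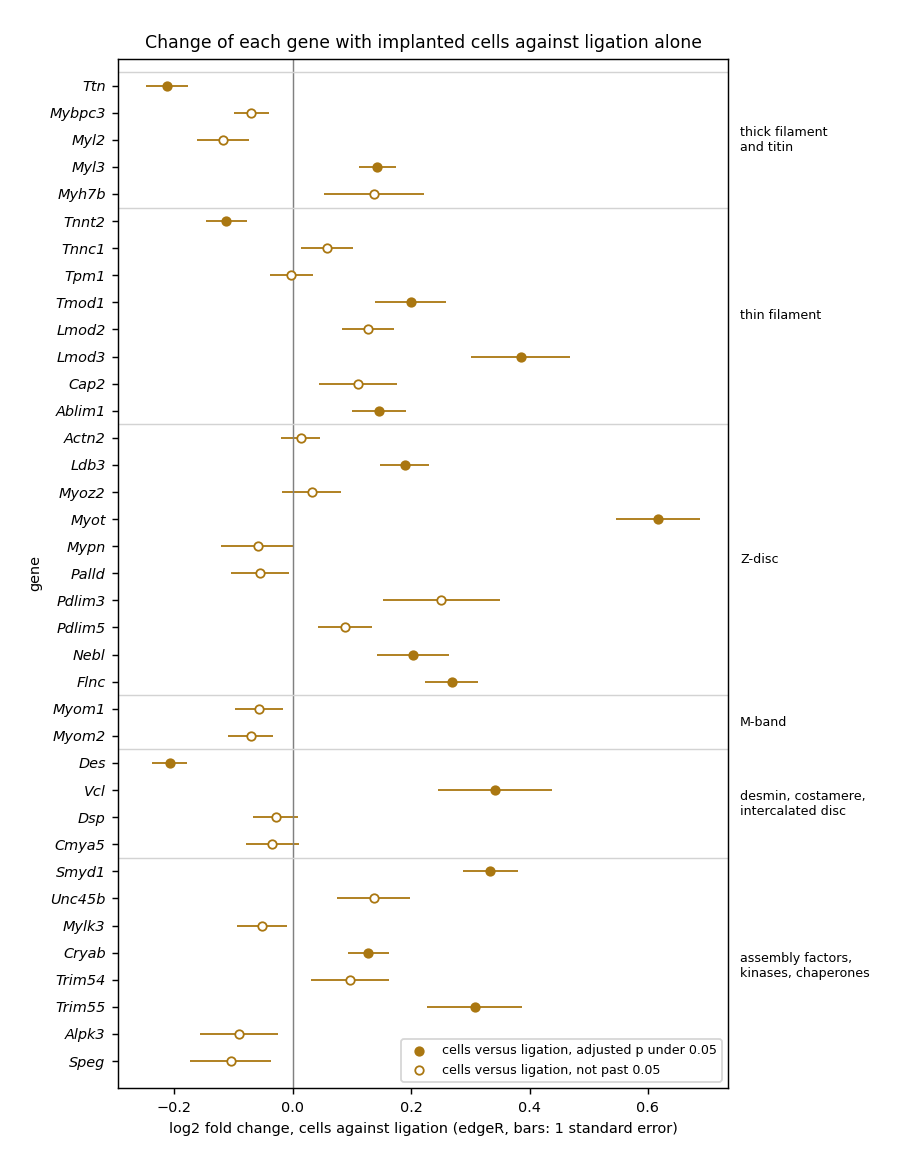
Log2 fold change (x axis, bars 1 standard error) of each gene (y axis, by role) between cells and ligation, filled where the adjusted p is under 0.05. Myot stands farthest to the right at 0.62, and Ttn and Des farthest to the left at -0.21 and -0.21.

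In the same lists, 4 of 13 further filament genes were higher with cells and the other 9 were not called. The higher genes were led by the atrial light chains Myl4 (1.79) and Myl7 (1.60) and by skeletal actin, Acta1 (0.55). Of 18 Z-disc and M-band genes 4 were higher and 1 lower, with Xirp1 (0.44) and Ankrd1 (0.24) higher and the titin cap Tcap, which fell by 0.24 on the log2 scale. Of 15 assembly and turnover genes 7 were higher and 1 lower, Hsp90aa1 at 0.49 and Hspb8 at 0.37 among the higher, and Fhod1, a formin that assembles actin, fell by 0.56. Of 15 adhesion and disc genes 1 was higher, plakophilin 2, Pkp2 (0.22).

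The third comparison set ligated hearts with cells against sham, so it shares libraries with both others. Of the 37 genes 20 were higher and 12 lower by the edgeR test, 86.5%, where 40.9% of all genes were called, 21.0% higher and 20.0% lower, and 65.0% of the 3426 genes at the level of the 37, 32.7% higher and 32.2% lower. Cells and sham libraries did not overlap in 36 of the 37, where 49.8% of all genes, most of them at lower levels, did not. With library totals alone, which moved the median gene by 0.16, the split was 25 higher and 8 lower. Myh7b and Myl2 were 2.90-fold and 2.08-fold lower than in sham (log2 fold change -1.54, SE 0.0752, adjusted p 1.49e-12 for Myh7b and log2 fold change -1.05, SE 0.0446, adjusted p 1.34e-13 for Myl2). Vinculin (1.87-fold), Tmod1 (1.83-fold), Lmod2 (1.82-fold), Alpk3 (1.79-fold) and Dsp (1.73-fold) were the most raised, with adjusted p-values of 4.67e-07, 5.1e-10, 3.97e-12, 4.12e-09 and 1.67e-12. Flnc stood 1.65-fold above sham with cells and 1.37-fold above it in ligation. Titin was 1.26-fold below sham with cells and 1.09-fold in ligation. Smyd1 and Myot were 1.27-fold and 1.34-fold above sham with cells, against log2 differences of 0.013 and -0.19 in ligation. The 5 genes that did not pass were Mybpc3, Lmod3, Actn2, Ldb3 and Trim54, with adjusted p-values from 0.109 to 0.632. With library totals alone all 5 were called higher, Actn2 and Ldb3 with a change of sign, to 0.121 and 0.132, and Mybpc3, Lmod3 and Trim54 at 0.201, 0.329 and 0.293. Of the 32 calls 27 held in all 19 alternatives. The calls of Tnnt2, Tpm1, Ablim1 and Myoz2 were lost with library totals alone (adjusted p 0.697, 0.244, 0.294 and 0.992), that of Myoz2 also without cells replicate 3, and that of Mypn without sham replicate 1 or cells replicate 1.

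**Figure D4:**
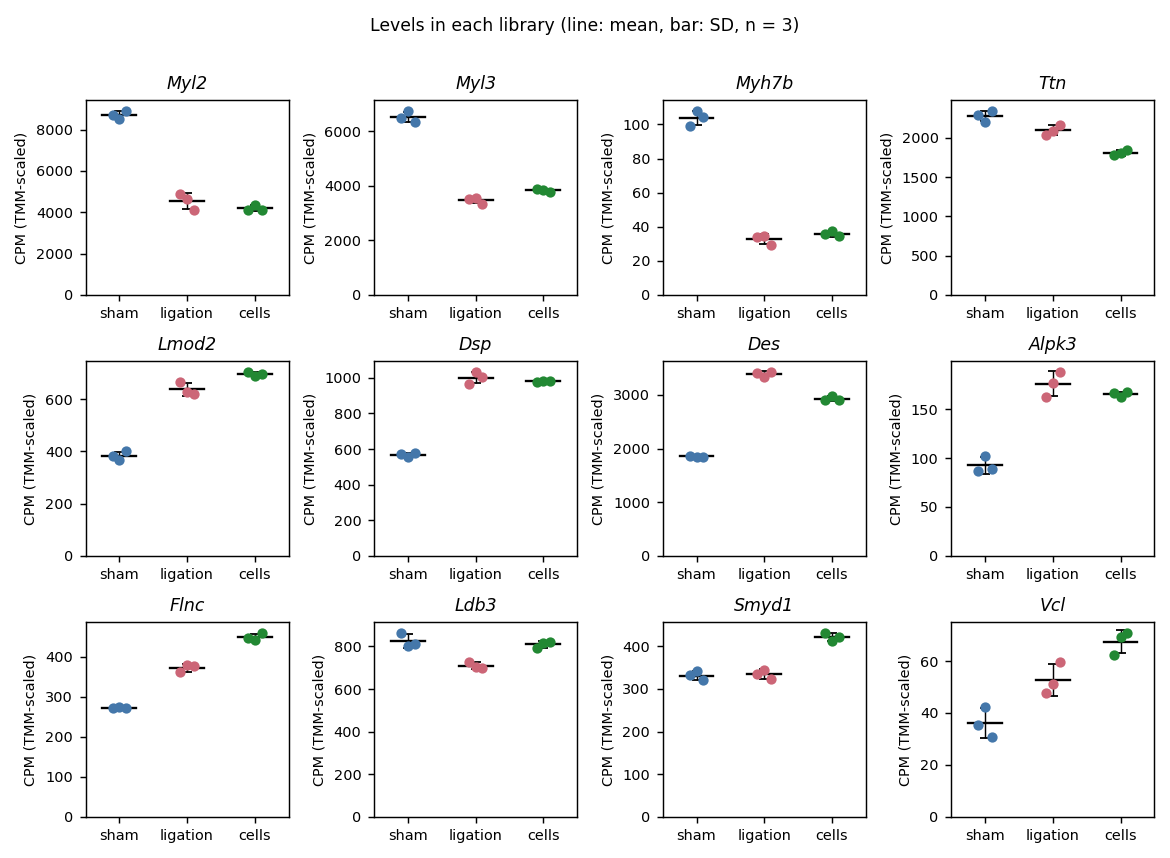
CPM (y axis from 0, TMM-scaled) of 12 genes in every library of the 3 groups (x axis), with the mean as a line and the SD as a bar (n = 3). Myl2, Myl3 and Myh7b drop from sham to both ligated groups, Lmod2, Dsp, Des and Alpk3 are raised in both, and Smyd1 is raised in the cells group.

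Markers of other cell types and of other muscle moved with the groups. Fast skeletal muscle shares several of the 37 genes with heart. Its 12 markers summed to 21.0 to 27.5 CPM in sham, 37.04 to 42.8 in ligation and 38.01 to 41.3 with cells, most of it from Mybpc2, which was at 16.2, 17.5 and 21.3 CPM in the 3 sham libraries, 26.2, 25.03 and 25.9 in ligation and 38.2, 34.4 and 37.02 with cells. Of the 5 tested, 3 were higher after ligation, and 1 was higher and 3 lower with cells against ligation. Tnnc2 had 0 counts in all 9 libraries, and the fast myosin Myh4 had 0 in sham and with cells and 0.426, 1.59 and 1.88 CPM in ligation. Atrial markers (6 genes, of which Myl4 and Myl7 are also in the filament list) summed to 478 to 568 CPM in sham, 848 to 1614 in ligation and 1572 to 2182 with cells, 2 higher and 3 lower after ligation, 3 higher and 1 lower with cells against ligation, and 5 higher against sham. The rise of this sum after ligation was not shared by all. The median log2 change of the list was -0.116, and Myl4 and Myl7 fell by 0.46 and 0.68 on the log2 scale. Fibroblast markers (9 genes) summed to 2514 to 2576 CPM in sham, 4485 to 4568 in ligation and 4205 to 4317 with cells, with 6 called higher and 1 lower after ligation and 2 lower with cells against ligation. Smooth muscle and myofibroblast markers, where desmin, palladin and vinculin are also expressed, summed to 1704 to 1769 CPM in sham, 1259 to 1269.7 in ligation and 1268 to 1314 with cells, with 1 higher and 5 lower of 8 tested after ligation and 1 higher and 1 lower with cells against ligation. Macrophage markers were at 502 to 558 CPM in sham, 1003 to 1023 in ligation and 412 to 429 with cells, with all 7 higher after ligation and all 7 lower with cells against ligation. Epithelial and mesothelial markers, whose cells express desmoplakin, were at 34.3 to 46.5 CPM in sham, 198 to 234 in ligation and 166 to 175 with cells, with all 7 tested higher after ligation and 2 lower with cells against ligation, and Krt5 had 0 counts in all 9 libraries. Endothelial markers were at 3380.0 to 3509 CPM in sham, 2324 to 2381 in ligation and 2422 to 2588 with cells, with 1 of 8 higher and 7 lower after ligation and 3 higher and 1 lower with cells against ligation. Red cell genes were at 871 to 919 CPM in sham, 1496 to 1595 in ligation and 663 to 679.6 with cells, with 4 of 5 higher and 1 lower after ligation and 4 lower with cells against ligation. Of the 12 heart muscle markers 4 were higher and 5 lower after ligation, and 5 higher and 7 not called with cells against ligation. The part of any of these in the changes of the 37 genes was not tested.

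**Figure D5:**
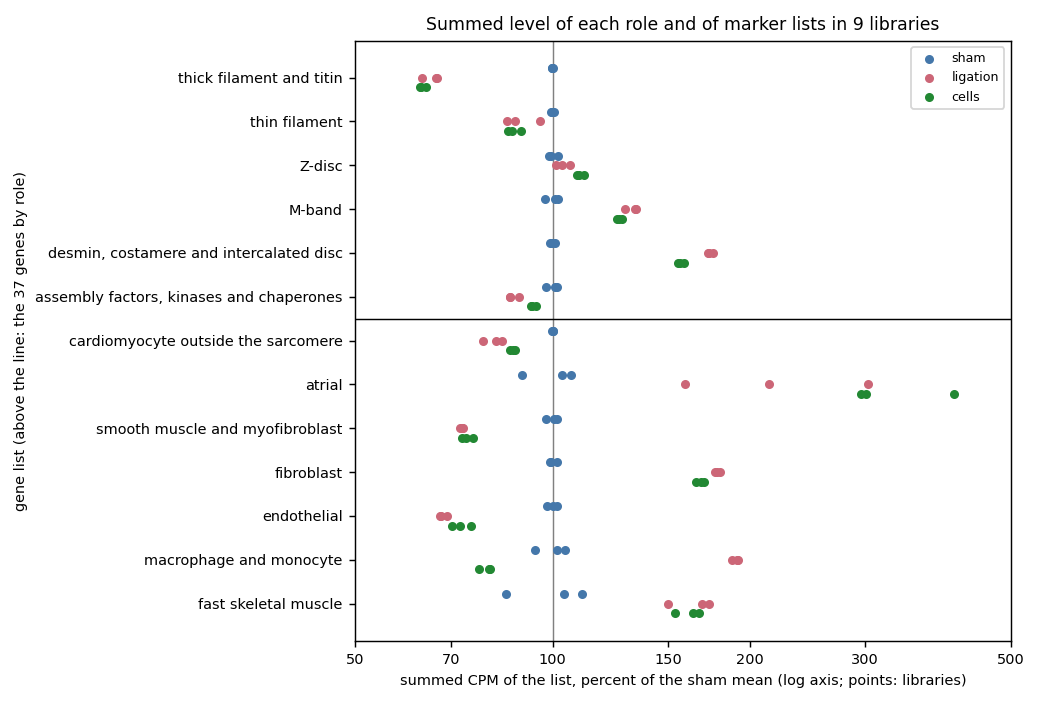
Summed CPM of each role of the 37 genes (above the line) and of marker lists (below), as a percent of the sham mean on a log axis, with 1 point for each library in blue (sham), red (ligation) and green (cells). Thick filament genes lie below sham and desmin and disc genes above it in all 6 ligated libraries, and the ligation libraries lie farther apart in atrial markers than in the roles of the 37 genes.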

How the data were processed

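Per the submitters' processing notes the genome build was mm10, and per the labels' protocols TRIzol was used to take out total RNA, from which the NEBNext Ultra RNA kit gave the libraries. The deposited values are raw counts per gene, 1 file for each library, and the aligner, strand setting and annotation release are not given in the sources used here. Reads outside genes (4.14% to 4.91%) and ambiguous reads (8.09% to 8.72%) were left out. Symbols, exon lengths and overlaps came from GENCODE M21 (GRCm38). In R 4.3.3, genes were kept with filterByExpr, scaled with TMM factors and fitted with 1 mean for each group over the 9 libraries, leaving 6 residual degrees of freedom (edgeR 4.0.16, glmQLFit and glmQLFTest), with Benjamini-Hochberg adjustment over 13825 genes and two-sided tests. SE is the absolute log2 fold change divided by the square root of F. Alternatives used limma 3.58.1 and DESeq2 1.42.0, and the code was tested on simulated data. Every pair of replicate libraries differed by more than sampling noise (chi-square per gene 1.96 to 3.88, over genes with an expected count of at least 5 in both). A level of 3 counts was 0.375 to 0.639 CPM, and such a floor covers counting error only. Members, lists and tests were chosen with earlier results of these data known. The text names all 37 members, and from each list of other contractile genes at most 3 called genes with a mean of at least 1 CPM, ranked by size of change. Marker lists are given by sums and counts, with a median for heart muscle and atrial markers. The marker genes named (Ryr2, Pln and Mb as examples, Mybpc2, Myh4, Tnnc2, Krt5, Myl4 and Myl7 for their levels) were chosen after their values were seen. Figures were drawn with matplotlib 3.10.9.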

Additional observations from a re-analysis of the deposited data

How the results depend on the processing

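With library totals alone the genes called higher numbered 4966 after ligation and 4612 with cells against sham, in place of 2783 and 2899, members called lower after ligation 8 in place of 13, and members with cells against ligation 7 higher and 5 lower in place of 12 and 3. Under it Ttn, Tnnt2 and Actn2 after ligation became 0.0685, 0.124 and 0.137 on the log2 scale, Actn2 with cells against ligation -0.0154, and Actn2, Ldb3 and Myoz2 with cells against sham 0.121, 0.132 and 0.000769. Tpm1 with cells against ligation became 0.00153 with DESeq2 size factors, 0.00471 with the DESeq2 test and 0.00951 with limma-voom. Smyd1 after ligation became -0.00378 without mitochondrially encoded genes and -0.00190 in a 2-group fit. Library totals alone moved the median gene by 0.189 after ligation, -0.0303 with cells against ligation and 0.158 with cells against sham. The log2 changes listed under that scaling were shifts of about that size. The cause of the other changes was not tested. The DESeq2 test called 30, 14 and 32 members in the 3 comparisons and 4131, 935 and 4390 genes.

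Fits that each left out 1 library called 29 to 32, 9 to 15 and 31 to 32 members, and with cells against ligation 7 to 12 members higher and 2 to 4 lower, and 364 to 587 genes higher. In them the log2 change ranged from -0.0108 to 0.0341 for Smyd1 and -0.0287 to 0.0820 for Trim54 after ligation, -0.0390 to 0.0505 for Tpm1 and -0.0130 to 0.0938 for Myoz2 with cells against ligation, and -0.0496 to 0.00472 for Ldb3 with cells against sham. Adding a replicate block to the fit, the members called were 31, 13 and 32 and the genes 5134, 1230 and 5511. It ended the calls of Myot after ligation and of Tmod1 and Ablim1 with cells against ligation (adjusted p 0.0581, 0.0617 and 0.0653) and called Lmod3 lower after ligation (adjusted p 0.0320). Deviations of same-numbered libraries correlated at -0.119 to 0.120 across 9414 genes, which are not independent, so the numbers were not taken as pairs. The summing of libraries by header stem was chosen after seeing the file headers. Every member had at least 160 counts in each library, and 3 libraries a group limit which small differences could be called.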
